A study of Mus musculus with 24 samples.

Results

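The genes described here hold leukocytes and their precursors in the bone marrow, let them leave it and guide them back. They are the integrin genes Itgam, Itgal, Itgb2, Itga4 and Itgb1, the adhesion receptor genes Selplg and Cd44, and the chemokine receptor gene Cxcr4. They were chosen by symbol for this role, and not by their values, although earlier results of these data were known. Each of the 8 symbols matched a row of the table of 54752 genes, and all 8 were among the 12373 genes that were tested. Beside each member stand the other genes of the same pathways, in 7 lists.

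Integrins are pairs of an α and a β chain on the cell surface. The β2 chain, from Itgb2, pairs with αM, from Itgam (CD11b), to form Mac-1 of neutrophils and monocytes, and with αL, from Itgal, to form LFA-1 of most leukocytes. Both bind ICAM proteins on endothelium. The α4 chain, from Itga4, pairs with the β1 chain, from Itgb1, to form VLA-4, which binds VCAM-1 and fibronectin and anchors progenitors to the stroma of the marrow. Selplg encodes PSGL-1, the main ligand of P-selectin on leukocytes, and Cd44 encodes a receptor for hyaluronan that, with suitable sugars, also binds selectins. Cxcr4 is the receptor of CXCL12, the stromal chemokine that retains stem cells, B-cell precursors and neutrophils in the marrow.

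Bone marrow RNA was measured in male C57BL/6 mice of 4 groups of 6, a library per mouse: wild type and Nrf2-KO mice kept on the ground (GC-WT and GC-KO) and wild type and Nrf2-KO mice flown in space (FL-WT and FL-KO). Nrf2-KO mice lack the transcription factor Nrf2, encoded by Nfe2l2, in the whole body, so that no cell type can be singled out as the place of an effect. Flight mice were 8 weeks old when they were shipped to the launch site, the age of the ground mice is not given in the sources used here, the flight lasted 31 days, and cells were taken from the right pelvis and tibia 2 days after landing and frozen. Ground controls were housed and sampled in Japan and flight mice were sampled in the United States, so flight, landing and place of handling cannot be told apart.

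The values are TPM, a share of all transcripts in a library that is scaled by transcript length and allows levels to be compared between genes. No read counts were at hand, so the depth of each library is unknown. Nfe2l2 lay between 2.22 and 7.18 TPM in the 12 Nrf2-KO mice and between 11.39 and 27.26 TPM in the 12 WT mice, so every library matched its labelled genotype. A handful of small non-coding RNAs, Rn7s1, Rn7s2, Rn7sk, Rpph1 and Rmrp, took 35.4% to 59.6% of the TPM of a library. Log2 fold changes are differences of the mean log2(TPM + 1), tested with limma, and their median over all tested genes was below 0 in every comparison, between -0.22 and -0.29. To pass the test a gene needed a Benjamini-Hochberg adjusted p below 0.1, and DEGs also needed a fold change of at least 2. The split of the genes that passed depended on how libraries were scaled. In GC-KO vs. GC-WT, 5306 genes passed as lower and 387 as higher with TPM as deposited, but 3577 and 3501 with median-of-ratios scaling, which sets the typical gene equal between libraries. FL-KO against FL-WT mice gave 5844 and 236, against 4065 and 3943. For flight it was 4821 and 123 in WT mice, against 1688 and 2553, and 6565 and 37 in Nrf2-KO mice, against 2525 and 2367. For this reason the median change of all genes, ratios of TPM within a library and other scalings stand beside the changes below.

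Some libraries stood apart from their group. GC-KO mice 11 and 12 held the top places among GC-KO mice for Itgam, Itgal, Itgb2, Selplg and Cd44, with a wide gap to the other 4 mice. For Itgam the gap ran from 19.4 to 34.6 TPM, and for Itgb2 from 26.9 to 47.7 TPM. The same 2 mice also had the most Mpo, a granule enzyme of promyelocytes, with 128.62 and 173.73 TPM against 39.13 to 62.38 TPM in the other 4, and the most Csf1r, the monocyte growth factor receptor, with 9.37 and 11.35 TPM against 3.73 to 4.96 TPM. They did not both lead in every marker, since mouse 12 had 68.21 TPM of the neutrophil marker Ly6g, below 73.95 TPM in mouse 9, and 2418.6 TPM of Camp, below 2632.35 TPM in mouse 4. GC-WT mouse 10 was lowest of its group in all 8 genes. Among FL-WT mice, mouse 5 was lowest in all 8 genes and mouse 7 was highest in 7 of them. Without GC-WT mouse 10, 4 members were DEGs between genotypes on the ground in place of 3, and DEGs with lower values over all genes numbered 581 in place of 376. Without FL-WT mouse 7, DEGs with lower values in FL-WT vs. GC-WT numbered 193 in place of 116, without FL-WT mouse 5 they numbered 77, and none was a member. Results without GC-KO mice 11 and 12 are given further on.

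**Figure D1:**
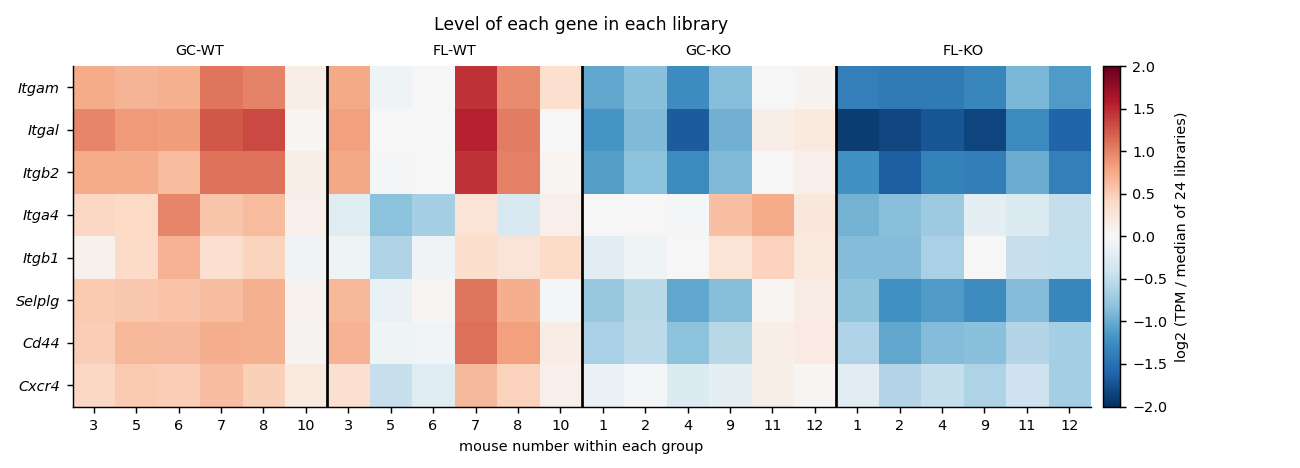
Level of each of the 8 genes (rows) in each of the 24 libraries (columns, by group and mouse number), as the log2 ratio of TPM to the gene's median over the libraries, red above and blue below it. GC-KO mice 11 and 12 and FL-WT mouse 7 stand above their groups in Itgam, Itgal, Itgb2, Selplg and Cd44, whereas rows Itga4 and Itgb1 vary less and in another way.

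Itgam, Itgal, Itgb2, Selplg and Cd44 were lower in Nrf2-KO mice on the ground and in flight, to between 0.194 and 0.541 of the mean of WT mice. The VLA-4 chains Itga4 and Itgb1 were at 0.840 and 0.868 of WT on the ground and did not pass the test there. Cxcr4 was at 0.690 of WT on the ground and 0.625 in flight, and it passed in both comparisons. In GC-KO vs. GC-WT, 6 of the 8 genes passed the test as lower, against 42.9% of all tested genes, and 3 of them were DEGs, against 3.04% of all tested genes. In FL-KO vs. FL-WT, 7 passed as lower, against 47.2% of all genes, and 5 were DEGs, against 8.36%. The median log2 fold change of the 8 was -0.94 on the ground, where all genes had -0.22, and -1.32 in flight, where all genes had -0.25. None of the 8 passed as higher in any comparison, where the share of all genes was 3.13% and 1.91% between genotypes on the ground and in flight, and 0.994% and 0.299% for flight in WT and Nrf2-KO mice.

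**Figure D2:**
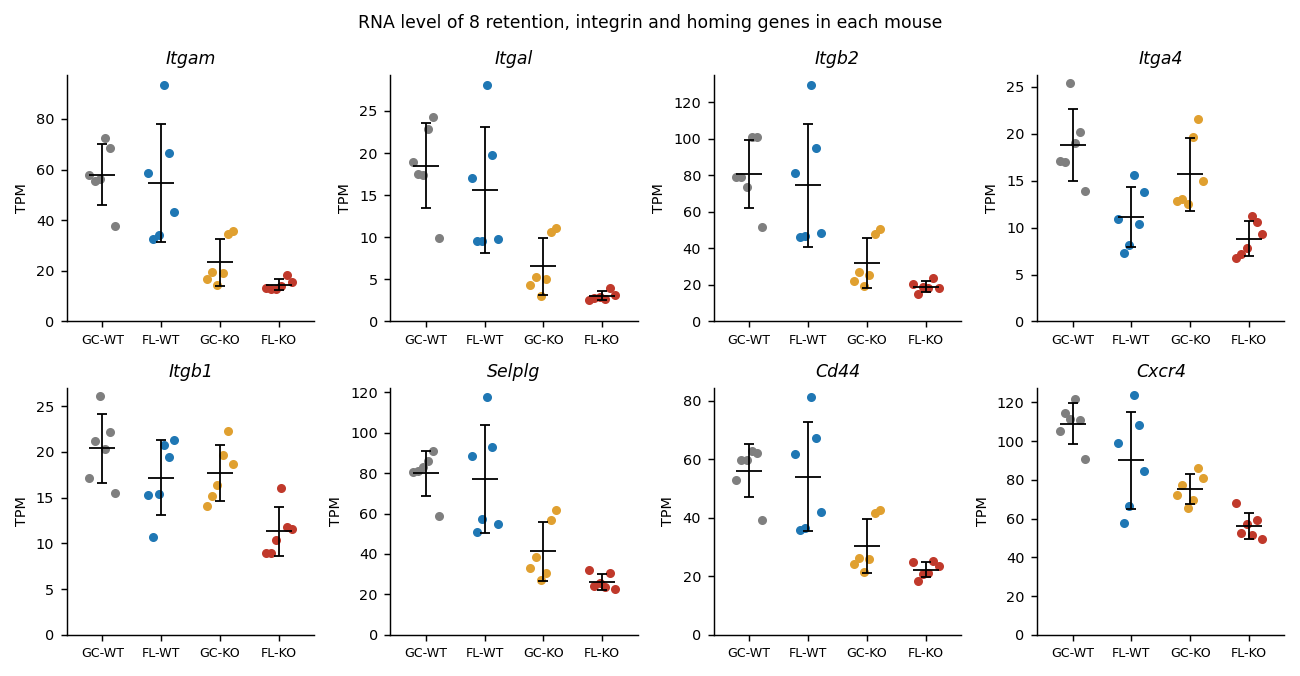
TPM of each gene in each mouse (points) by group, with the mean and SD of 6 mice (black). For Itgam, Itgal, Itgb2, Selplg and Cd44 the 6 FL-KO mice sit below all 6 FL-WT mice, and for Itga4 all FL-KO mice sit below all GC-KO mice.

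Among the β2 integrin genes, Itgam (ENSMUSG00000030786.18) lies on chromosome 7 of GRCm38, from 128062640 to 128118491 on the forward strand. Its level ran from 37.77 to 72.28 TPM in GC-WT mice with a median of 57.1 TPM, and from 14.45 to 35.71 TPM in GC-KO mice with a median of 19.2 TPM. In flight it ran from 32.49 to 93.45 TPM in FL-WT mice (median 50.9 TPM) and from 12.93 to 18.26 TPM in FL-KO mice (median 13.6 TPM). All Nrf2-KO mice were thus below all WT mice of the same place, and the FL-KO mice lay within a narrower range than any other group. Between genotypes the log2 fold change was -1.33 (SE 0.23, limma adjusted p = 0.000407) on the ground and -1.76 (SE 0.23, limma adjusted p = 1.79e-06) in flight. Both are past the fold change of 2, and by exact permutation of the rank sum, two-sided, p was 0.00216 on the ground and in flight, which is the lowest value this number of mice can give. Groups that did not overlap, with lower values in Nrf2-KO mice, were found for 9.15% of all tested genes on the ground and 20.6% in flight.

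Itgb2 (ENSMUSG00000000290.13, chromosome 10, 77530252 to 77565708, forward strand) encodes the common β chain. GC-WT mice had 80.9 ± 18.5 TPM (SD, n = 6) of it, with values from 51.66 to 100.96 TPM, and GC-KO mice 32.1 ± 13.5 TPM (SD, n = 6), with values from 19.58 to 50.77 TPM. Those ground groups came close, at 50.77 and 51.66 TPM, but did not overlap. Flown WT mice had 74.6 ± 33.7 TPM (SD, n = 6) and flown Nrf2-KO mice 19.1 ± 2.86 TPM (SD, n = 6), and the lowest WT mouse had 46.52 TPM against 23.78 TPM for the highest Nrf2-KO mouse. Its log2 fold change was -1.37 (SE 0.24, limma adjusted p = 0.000411) on the ground and -1.81 (SE 0.24, limma adjusted p = 2.38e-06) in flight.

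Itgal (ENSMUSG00000030830.18, chromosome 7, 127296260 to 127335138, forward strand) encodes the α chain of LFA-1. It had a median of 18.2 TPM in GC-WT mice (9.85 to 24.26 TPM), 13.4 TPM in FL-WT mice (9.59 to 28.04 TPM), 5.13 TPM in GC-KO mice (3.04 to 11.05 TPM) and 2.85 TPM in FL-KO mice (2.6 to 4.02 TPM). On the ground the groups overlapped, because GC-KO mice 11 and 12 reached the level of GC-WT mouse 10. Its fold change was the largest of the 8 in both genotype comparisons, with log2 values of -1.44 (SE 0.26, limma adjusted p = 0.000416) and -1.94 (SE 0.26, limma adjusted p = 2.39e-06).

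The αM and β2 chains of Mac-1 varied in nearly fixed proportion across the libraries. Itgb2 varied 8.54-fold and Itgam 7.23-fold over the 24 libraries, but the ratio of Itgam to Itgb2 within a library varied only 1.37-fold, from 0.650 to 0.888. Its geometric mean was 0.720 and 0.732 in GC-WT and GC-KO mice and 0.740 and 0.760 in FL-WT and FL-KO mice, and no comparison passed an exact permutation test (adjusted p = 0.577 to 0.739). Ratios of this kind do not depend on how libraries are scaled, but keep any trend of a library with GC content or transcript length. In all, 16 of them were tested in 4 comparisons each, with p adjusted over the 64 tests. A ratio passed at an adjusted p below 0.05, stricter than the 0.1 used for genes. The ratio of Itgal to Itgb2 varied 1.90-fold, with 0.225 and 0.195 in GC-WT and GC-KO mice and 0.208 and 0.158 in FL-WT and FL-KO mice. In flight all 6 FL-KO mice had a lower ratio than all 6 FL-WT mice (exact permutation test, p = 0.00216, adjusted p = 0.0115). On the ground the same difference had an adjusted p of 0.0866 by the exact test.

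A large part of the fall of the β2 chains remained when they were set against Ptprc, which encodes CD45, the phosphatase found on all leukocytes. Ptprc itself was at 36.1 TPM in GC-KO and 49.9 TPM in GC-WT mice, and at 27.3 TPM in FL-KO and 45.6 TPM in FL-WT mice. The ratio of Itgb2 to Ptprc was 0.846 in GC-KO and 1.59 in GC-WT mice (exact permutation test, p = 0.00433, adjusted p = 0.0115), and 0.702 in FL-KO and 1.58 in FL-WT mice (p = 0.00216 by the same exact test, adjusted p = 0.0115). Itgam to Ptprc fell by 0.88 on the log2 scale on the ground and by 1.13 in flight, and Itgal to Ptprc by 1.11 and 1.56, each with an adjusted p of 0.0115. In bulk marrow, fewer cells of a type and less RNA per cell cannot be told apart.

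**Figure D3:**
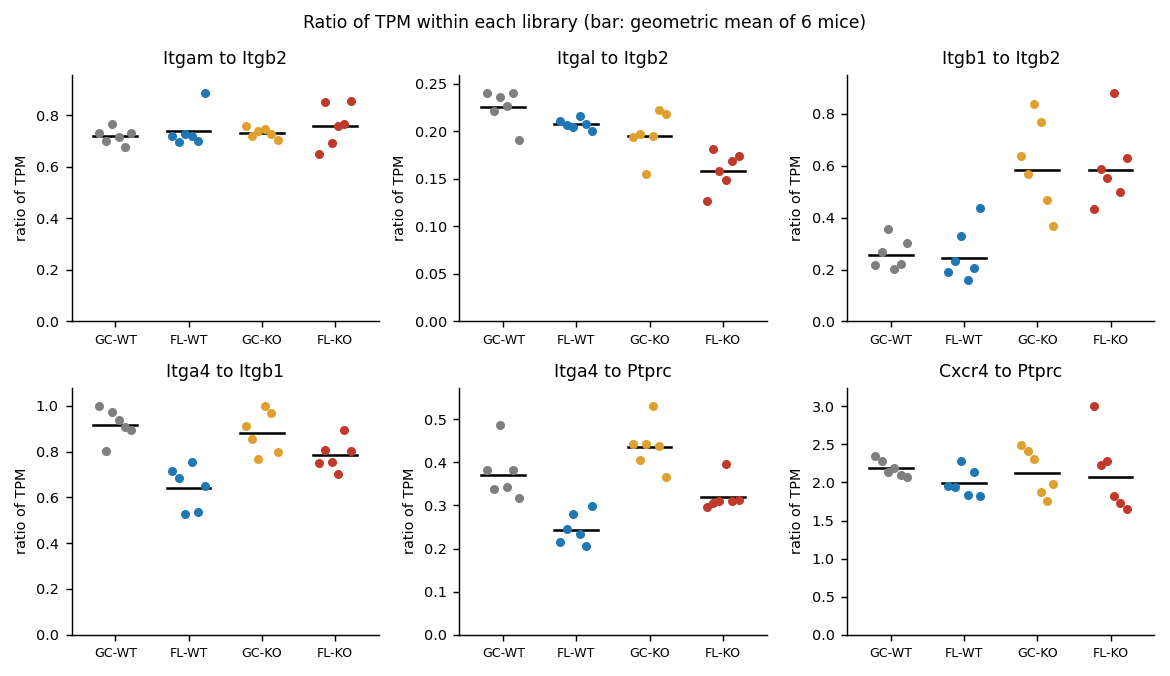
Ratio of the TPM of pairs of genes within each library (points) by group, with the geometric mean of 6 mice (bars) on linear axes from 0. Itgam to Itgb2 stays between 0.650 and 0.888 in all 24 libraries, Itgb1 to Itgb2 is higher in Nrf2-KO mice, and Itga4 to Itgb1 is lower in FL-WT mice than in all GC-WT mice.

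Markers of the myeloid cells that carry these integrins did not all move with them. The summed level of 10 neutrophil markers ran from 41752 to 64026 TPM in GC-KO mice and from 29799 to 55745 TPM in GC-WT mice. S100a8 alone gave 17743.85 of the 43193 TPM in GC-KO mouse 1, where Csf3r was at 19.07 TPM, so the sum follows its abundant genes. In GC-KO vs. GC-WT, 5 of the 10 passed as lower and 2 as higher, and in FL-KO vs. FL-WT 7 passed as lower. Of all genes, 42.9% passed as lower and 3.13% as higher on the ground, and 47.2% as lower in flight. Ltf, a protein of secondary granules, was at 218 TPM in GC-KO and 628 TPM in GC-WT mice, Mmp9, a gelatinase, at 44.0 and 151 TPM, and Csf3r, the G-CSF receptor, at 26.1 and 56.1 TPM, and these 3 were DEGs. With median-of-ratios scaling the counts were 5 lower and 4 higher on the ground and 5 and 3 in flight. Camp, a granule peptide, was at 2460 and 2216 TPM and Ly6g, a surface marker, at 68.8 and 76.3 TPM, and neither passed on the ground. Among 4 promyelocyte markers 2 passed as lower on the ground, and their sum had a median of 424 TPM in GC-KO mice (338 to 761 TPM) and 833 TPM in GC-WT mice (571 to 958 TPM). The sum of 6 monocyte and macrophage markers had medians of 298 TPM (250 to 404 TPM) and 426 TPM (353 to 473 TPM), and 4 of the 6 passed as lower. No marker of these 3 lists was at 0 throughout, and their part in the fall of the β2 integrin genes was not tested.

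Among the receptors for selectins and hyaluronan, Selplg (ENSMUSG00000048163.13, chromosome 5, 113818536 to 113832644, reverse strand) had its median at 81.8 TPM in GC-WT mice (58.58 to 91.04 TPM) and at 35.7 TPM in GC-KO mice (27.16 to 61.57 TPM). The flight medians were 72.9 TPM in WT mice (51.01 to 117.47 TPM) and 24.8 TPM in Nrf2-KO mice (22.48 to 31.82 TPM). The ground groups overlapped through GC-KO mouse 12 and GC-WT mouse 10, and the flight groups did not. Its log2 fold change was -0.99 (SE 0.20, limma adjusted p = 0.000615) on the ground, just short of the fold change of 2, and -1.45 (SE 0.20, limma adjusted p = 2.83e-06) in flight. Cd44 (ENSMUSG00000005087.17, chromosome 2, 102811141 to 102901665, reverse strand) showed the same order of groups. WT mice had 56.1 ± 8.98 TPM (SD, n = 6) on the ground and 54.1 ± 18.7 TPM in flight, and Nrf2-KO mice 30.3 ± 9.23 TPM and 22.3 ± 2.63 TPM. Its highest GC-KO mouse had 42.56 TPM and the lowest GC-WT mouse 39.18 TPM, whereas the highest FL-KO mouse had 25.18 TPM and the lowest FL-WT mouse 35.87 TPM. The log2 fold changes of Cd44 were -0.90 (SE 0.19, limma adjusted p = 0.00082) and -1.18 (SE 0.19, limma adjusted p = 1.61e-05).

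With TPM as deposited, neither gene fell as far as Itgb2. On the ground the ratio of Selplg to Itgb2 was higher in Nrf2-KO mice by 0.39 on the log2 scale, and that of Cd44 to Itgb2, at 0.977 in GC-KO and 0.702 in GC-WT mice, by 0.48. In both ratios all GC-KO mice were above all GC-WT mice, and all FL-KO mice above all FL-WT mice (exact permutation test, p = 0.00216, adjusted p = 0.0115 for each of the 4). Cd44 to Itgb2 was also higher in FL-KO than in GC-KO mice, at 1.17 (exact permutation test, adjusted p = 0.0213), but without GC-KO mice 11 and 12 the adjusted p of the exact test was 0.0711.

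The VLA-4 genes behaved differently, with a fall of Itga4 in flight and no difference in TPM between genotypes on the ground that passed the test. Itga4 (ENSMUSG00000027009.18, chromosome 2, 79255426 to 79333123, forward strand) ran from 13.88 to 25.38 TPM in GC-WT mice (median 18.1 TPM) and from 7.34 to 15.65 TPM in FL-WT mice (median 10.7 TPM). In Nrf2-KO mice it ran from 12.57 to 21.54 TPM on the ground (median 14 TPM) and from 6.72 to 11.29 TPM in flight (median 8.54 TPM). Cerkl, which overlaps Itga4 on the other strand, was at most at 0.470 TPM. FL-WT mouse 7, at 15.65 TPM, reached the range of GC-WT mice, and all FL-KO mice were below all GC-KO mice. The log2 fold change in flight was -0.73 (SE 0.17, limma adjusted p = 0.00366) in WT mice and -0.76 (SE 0.17, limma adjusted p = 0.00162) in Nrf2-KO mice, and the interaction of flight and genotype was -0.03 (SE 0.24, limma adjusted p = 1). Its fall in flight passed the test in both genotypes under every scaling, filter and left-out library tried, although it became smaller, at -0.37 and -0.35, with median-of-ratios scaling. Between genotypes Itga4 differed by -0.25 (SE 0.17, limma adjusted p = 0.275) on the ground and -0.28 (SE 0.17, limma adjusted p = 0.211) in flight, with 0.07 and 0.09 under median-of-ratios scaling, so that its sign there depended on the scaling.

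Itgb1 (ENSMUSG00000025809.15, chromosome 8, 128685654 to 128733200, forward strand) encodes the β chain of VLA-4. GC-WT mice averaged 20.4 ± 3.76 TPM (SD, n = 6) and FL-WT mice 17.2 ± 4.06 TPM (SD, n = 6), with values of 15.52 to 26.14 TPM and 10.75 to 21.26 TPM. That difference did not pass, and it was 0.11 instead of -0.25 on the log2 scale with median-of-ratios scaling. Nrf2-KO mice had 17.7 ± 3.06 TPM (SD, n = 6) of Itgb1 on the ground and 11.3 ± 2.66 TPM (SD, n = 6) in flight, a log2 fold change of -0.62 (SE 0.16, limma adjusted p = 0.00421). In FL-KO vs. FL-WT it passed at -0.56 (SE 0.16, limma adjusted p = 0.00552), and under quantile normalization, at -0.11, it did not.

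The ratio of the VLA-4 chains was lower in flight in WT mice. Itga4 to Itgb1 was 0.916 in GC-WT mice (0.801 to 0.997) and 0.639 in FL-WT mice (0.529 to 0.754), with no overlap (exact permutation test, p = 0.00216, adjusted p = 0.0115). In Nrf2-KO mice it was 0.879 on the ground and 0.783 in flight (exact permutation test, p = 0.0606, adjusted p = 0.108). The difference between the genotypes' shifts was not tested. FL-KO mice had a higher ratio than FL-WT mice (exact permutation test, adjusted p = 0.0297), and the difference between GC-KO and GC-WT mice did not pass (exact permutation test, adjusted p = 0.582). Relative to Ptprc, Itga4 fell in flight by 0.60 on the log2 scale in WT mice, from 0.371 to 0.244, and by 0.44 in Nrf2-KO mice, from 0.435 to 0.320 (exact permutation test, adjusted p = 0.0115 for each). Set against the β2 chain, Itgb1 was at 0.584 in GC-KO and 0.255 in GC-WT mice, and at 0.583 in FL-KO and 0.243 in FL-WT mice (exact permutation test, adjusted p = 0.0115 for each).

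Genes of B-cell precursors and megakaryocytes, which also carry VLA-4, moved in flight beside Itga4. Of all genes, 39.0% passed as lower for flight in WT and 53.1% in Nrf2-KO mice. All 9 B progenitor markers passed as lower in flight in either genotype, and their summed level had a median of 217 TPM in GC-WT (175 to 249 TPM), 127 TPM in FL-WT (85.7 to 217 TPM), 146 TPM in GC-KO (116 to 175 TPM) and 86.4 TPM in FL-KO mice (69.5 to 113 TPM). Of 5 megakaryocyte markers 3 passed as lower in WT and 5 in Nrf2-KO mice, with summed medians of 166 TPM in GC-WT (88.0 to 288 TPM), 108 TPM in FL-WT (44.2 to 154 TPM), 152 TPM in GC-KO (92.5 to 179 TPM) and 73.0 TPM in FL-KO mice (30.3 to 132 TPM). Among 9 erythroid markers 6 passed as lower in flight in WT and 7 in Nrf2-KO mice, while the sum, which is mostly globin, had medians of 98528 TPM in FL-WT (88092 to 121331 TPM) and 108110 TPM in GC-WT mice (50867 to 121168 TPM). Of 5 tested stroma and endothelium markers all passed as lower in flight in both genotypes, with summed medians of 40.5 TPM (22.3 to 54.9 TPM) and 58.8 TPM (37.9 to 81.2 TPM) in FL-WT and GC-WT mice. With median-of-ratios scaling 6 of the 9 B progenitor markers still passed as lower in either genotype, and 0 of the 5 megakaryocyte markers in WT and 3 in Nrf2-KO mice, and of the 5 stroma and endothelium markers 2 in WT and 1 in Nrf2-KO mice. Neutrophil markers went the other way in WT mice, where 6 of 10 passed as higher in flight and 0 as lower. Their summed median, which follows abundant genes such as S100a8, was 40601 TPM on the ground and 59758 TPM after flight. With median-of-ratios scaling 7 passed as higher. In Nrf2-KO mice 3 of them passed as lower and 1 as higher in flight, and 2 and 7 with that scaling. The part of these cells in the fall of Itga4 was not tested.

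Cxcr4 (ENSMUSG00000045382.6, chromosome 1, 128588199 to 128592293, reverse strand) had the highest mean TPM of the 8 genes in every group. Its level ran from 90.85 to 121.95 TPM in GC-WT mice (median 111 TPM), from 57.81 to 123.81 TPM in FL-WT mice (median 91.9 TPM), from 65.59 to 86.34 TPM in GC-KO mice (median 74.9 TPM) and from 49.32 to 67.90 TPM in FL-KO mice (median 54.9 TPM). GC-KO mice were all below GC-WT mice, whereas FL-KO mice overlapped with FL-WT mice. When the groups were ordered by mean TPM for each gene separately, neighbouring groups overlapped for every one of the 8 genes. The log2 fold change of Cxcr4 between genotypes was -0.53 (SE 0.14, limma adjusted p = 0.00443) on the ground and -0.63 (SE 0.14, limma adjusted p = 0.000681) in flight. With median-of-ratios scaling the ground difference was -0.19 and no longer passed. Its ratio to Ptprc was 2.19 and 2.12 in GC-WT and GC-KO mice and 1.99 and 2.07 in FL-WT and FL-KO mice, and it varied 1.81-fold over the 24 libraries. None of the 4 comparisons of that ratio passed the exact permutation test (adjusted p = 0.103 to 0.798). Cxcr4 to Itgb2 was higher in Nrf2-KO mice, at 2.51 against 1.38 on the ground and 2.96 against 1.26 in flight (exact permutation test, adjusted p = 0.0115 for each).

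**Figure D4:**
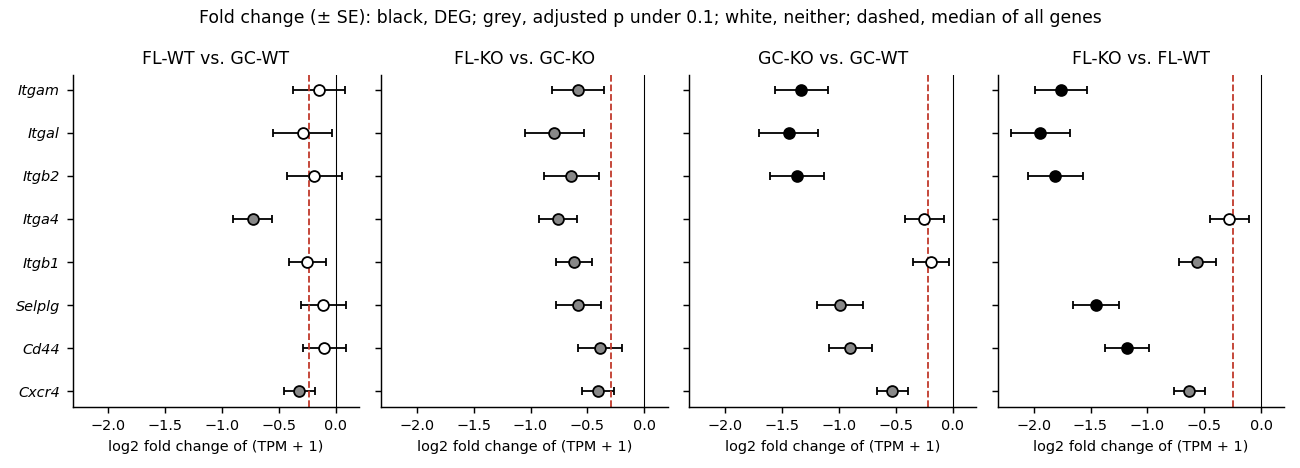
Log2 fold change of TPM + 1 (points) with its SE (bars) for each gene in the 4 comparisons, with the median of all tested genes as a dashed line. Black points are DEGs (3 between genotypes on the ground and 5 in flight), grey points passed at an adjusted p under 0.1, and white points did not pass.

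For flight, no member was a DEG in either genotype, where 0.938% of all tested genes were DEGs with lower values for WT flight mice and 2.13% for Nrf2-KO flight mice. In FL-WT vs. GC-WT, 2 members passed as lower, Itga4 and Cxcr4, against 39.0% of all genes, and limma gave an unadjusted p under 0.05 for both, against 41.7% of all genes with lower values. No member had groups that did not overlap, which 4.19% of all genes did. Cxcr4 was at -0.32 (SE 0.14, limma adjusted p = 0.0875), a call that was lost in 7 of the 24 fits without a library and was 0.07 with median-of-ratios scaling. The median of the 8 was -0.22, beside -0.24 for all genes. In FL-KO vs. GC-KO all 8 passed as lower, against 53.1% of all genes, and 7 had an unadjusted p under 0.05, against 52.2%. The log2 fold changes lay between -0.39 for Cd44 and -0.79 for Itgal, with a median of -0.60 beside -0.29 for all genes. Only Itga4 had no overlap between the groups, which held for 18.4% of all genes.

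The falls in FL-KO vs. GC-KO rested in large part on GC-KO mice 11 and 12 and on the scaling. Without those 2 mice, a choice made after the data were seen, Itgam changed by -0.25 (limma adjusted p = 0.445), Itgal by -0.41 (0.263), Itgb2 by -0.29 (0.407), Selplg by -0.29 (0.307), Cd44 by -0.13 (0.65) and Cxcr4 by -0.34 (0.151), and none of these 6 passed. Itga4, at -0.66 (limma adjusted p = 0.0203), and Itgb1, at -0.51 (limma adjusted p = 0.0497), still passed. With median-of-ratios scaling of all libraries the same 6 genes did not pass, and Cd44 and Cxcr4 were at 0.05 and 0.03. GC-KO mice 11 and 12 were the highest GC-KO mice for Itgam, Itgal, Itgb2, Selplg and Cd44. Leaving them out therefore had to shrink the fall of these genes in FL-KO vs. GC-KO and widen their genotype difference on the ground. The ground log2 fold changes became -1.66 for Itgam, -1.82 for Itgal, -1.71 for Itgb2, -1.28 for Selplg and -1.15 for Cd44, and 5 members were DEGs. These mice also moved the ratios in FL-KO vs. GC-KO. At an adjusted p below 0.05, 4 of 16 passed with them and 1 without them, that of Itga4 to Ptprc. Without them Itgam to Itgal, Cd44 to Itgb2 and Itgal to Ptprc had adjusted p of 0.0631, 0.0711 and 0.0952 by the exact test. Those values are below the 0.1 used for genes.

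Whether flight acted differently in the 2 genotypes was tested by the interaction. No member passed (limma adjusted p = 1 for each of the 8), and 0.0162% of all genes did. None had an unadjusted p under 0.05 by limma, against 3.03% of all genes with lower values. The interaction lay between -0.50 for Itgal (SE 0.37) and -0.03 for Itga4, with a median of -0.39 beside -0.06 for all genes. Without GC-KO mice 11 and 12 it was -0.12 for Itgal and -0.10 for Itgam.

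**Figure D5:**
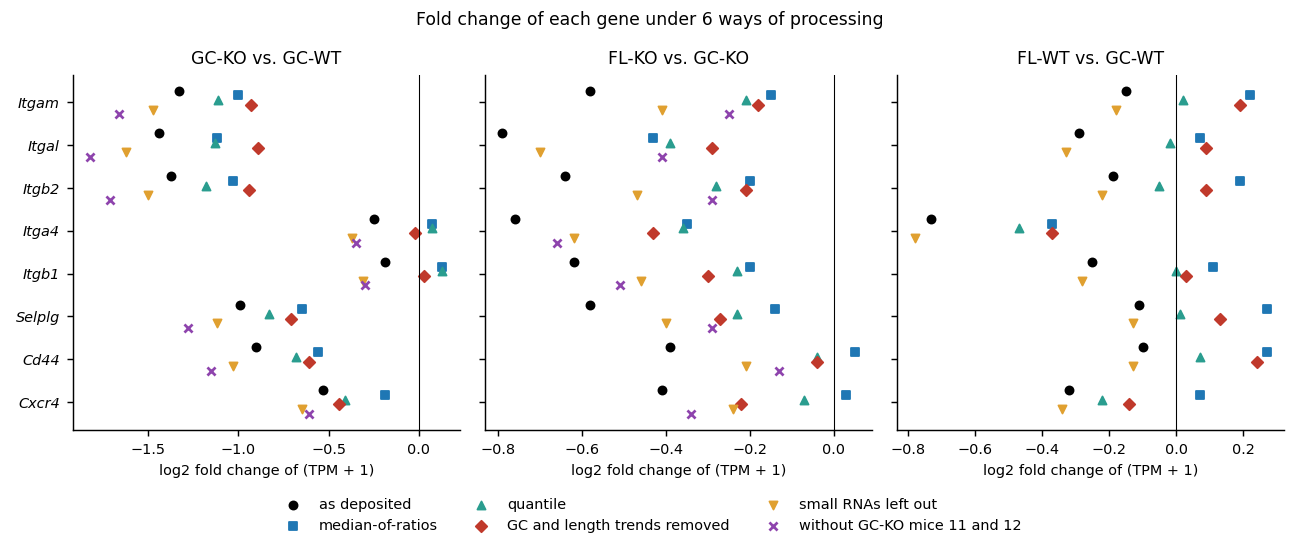
Log2 fold change of TPM + 1 for each gene in 3 comparisons under 6 ways of processing (symbols). In GC-KO vs. GC-WT the β2 integrin genes, Selplg and Cd44 stay below 0 throughout (for Itgam -1.66 to -0.93), whereas in FL-KO vs. GC-KO Cd44 and Cxcr4 cross 0 and Itga4 stays between -0.76 and -0.35.

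The fall of the β2 genes in Nrf2-KO mice passed under every scaling tried, but its size varied. In GC-KO vs. GC-WT, Itgb2 was at -1.03 with median-of-ratios scaling, -1.18 with quantile normalization and -0.94 after the trends of each library with GC content and transcript length had been removed, whereas Itgam was at -1.47 with the small RNAs left out and TPM rescaled, against -1.33 as deposited. Removing the trends left none of the 8 as a DEG on the ground, although 6 still had an adjusted p under 0.1. In flight it left 4, with Itgam at -1.29, Itgal at -1.27, Itgb2 at -1.24 and Selplg at -1.11. Itgal and Itgb2 then fell nearly alike, and the ratios within a library were not tested with the trends removed. The longest transcripts of the members ran from 1805 nucleotides for Cxcr4 to 9767 for Itga4, and their GC content from 41.1% for Itga4 to 53.2% for Itgal. The β2 genes Itgal and Itgb2 were highest in GC content, at 53.2% and 53.1%, and Itga4 was lowest.

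The upstream sequences of 5 of the 8 genes were found in RefSeq's promoter table (GRCm38.p6), and those of Itgam, Itga4 and Itgb1 are shown because these genes differed in how they moved. Each is the 250 bases before the start of the gene, 5′ to 3′ on the gene's strand, with matches to 3 motifs in capitals: TGACNNNGC, the core of the element bound by Nrf2 and its Maf partners, GAGGAA, the core of sites of the myeloid factor PU.1, and TGTGGT, the core of RUNX sites. Itgam (chr7:128062390-128062639, forward strand), Itga4 (chr2:79255176-79255425, forward strand) and Itgb1 (chr8:128685404-128685653, forward strand) read as follows.
Itgam: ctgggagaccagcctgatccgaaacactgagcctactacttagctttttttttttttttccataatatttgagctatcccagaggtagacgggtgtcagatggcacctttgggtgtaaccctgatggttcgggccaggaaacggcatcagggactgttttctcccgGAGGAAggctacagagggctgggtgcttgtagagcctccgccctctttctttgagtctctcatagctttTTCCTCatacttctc
Itga4: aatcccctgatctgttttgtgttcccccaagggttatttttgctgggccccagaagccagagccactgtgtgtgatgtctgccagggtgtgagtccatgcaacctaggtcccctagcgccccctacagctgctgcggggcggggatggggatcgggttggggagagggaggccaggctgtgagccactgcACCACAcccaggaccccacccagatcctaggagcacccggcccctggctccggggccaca
Itgb1: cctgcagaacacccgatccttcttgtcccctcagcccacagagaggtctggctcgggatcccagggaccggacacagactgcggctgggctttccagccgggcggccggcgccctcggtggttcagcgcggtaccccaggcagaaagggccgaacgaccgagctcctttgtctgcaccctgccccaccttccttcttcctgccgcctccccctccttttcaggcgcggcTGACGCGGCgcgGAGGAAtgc

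Itgam held GAGGAA 84 bases before its start and, on the other strand, 15 bases before and 32 bases after it, the last outside the printed stretch. Itga4 held TGTGGT on the other strand 60 bases before its start, and Itgb1 held TGACNNNGC 21 bases and GAGGAA 9 bases before its start. Of the genes not shown, Cd44 held GAGGAA on the other strand 243 and 220 bases before its start, and Cxcr4 held none of the 3. In the 300 bases around the start, TGACNNNGC was found in 12.4% of 32851 promoters, GAGGAA in 28.3% and TGTGGT in 16.8%, searched on both strands. A match describes the letters and not a bound site. Itgal, Itgb2 and Selplg were not matched.

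Most genes that switch integrins on were lower in Nrf2-KO mice, as the β2 chains were. Of 12 genes of integrin activation, 10 passed as lower between genotypes on the ground and 10 in flight, with medians of -0.68 and -0.71. Over all genes the shares were 42.9% and 47.2%, and the medians -0.22 and -0.25. For flight, beside this list and those below, 39.0% of all genes passed as lower in WT and 53.1% in Nrf2-KO mice. Tln1, encoding talin that binds the tail of the β chain, was at 58.6 TPM in GC-WT, 46.4 TPM in FL-WT, 24.2 TPM in GC-KO and 10.8 TPM in FL-KO mice, with log2 fold changes of -1.26 and -1.93 between genotypes. Pxn, encoding the adaptor paxillin, changed by -1.32 and -1.96. In flight Fermt3, encoding the talin partner kindlin-3, changed by -1.40, Vcl, encoding vinculin, by -1.35 and Apbb1ip, encoding the Rap1 effector RIAM, by -1.34, and all 5 were DEGs. The small GTPase genes Rap1a and Rap1b did not pass between genotypes, at 0.32 and 0.07 on the ground, and both passed as higher with median-of-ratios scaling, at 0.64 and 0.41. With that scaling 10 of the 12 still passed as lower on the ground and 8 in flight. With GC content and length trends removed, Fermt3 and Vcl were at -0.64 and -0.88 between genotypes in flight, short of a fold change of 2. Tln1, Pxn and Apbb1ip stayed past it in flight, whereas on the ground Tln1 and Pxn were at -0.54 and -0.73. For flight, Tln1 was a DEG in Nrf2-KO mice, at -1.05. With median-of-ratios scaling it was at -0.63 and with trends removed at -0.45, where it passed but was not a DEG. None of the 12 passed for flight in WT mice, where Fermt3, Tln1 and Cyth1 moved most, at -0.38, -0.38 and -0.35.

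Of 13 other integrin subunit genes, 12 were tested. Between genotypes 8 passed as lower on the ground and 8 in flight, where 42.9% and 47.2% of all genes did. Itgb7, the β chain that pairs with α4 in the gut homing integrin, was the one DEG in each, at -1.07 and -1.61. In flight 6 passed as lower in WT and 9 in Nrf2-KO mice, without a DEG, and the largest changes were those of Itgb3, Itga2b and Itga6 in WT mice, at -0.78, -0.70 and -0.53, and of Itga2b, Itgb3 and Itgb7 in Nrf2-KO mice, at -0.93, -0.86 and -0.70. Itgb3 and Itga2b form the fibrinogen receptor of platelets. With median-of-ratios scaling 7 passed as lower in each genotype comparison, 1 for flight in WT and 5 in Nrf2-KO mice. With GC content and length trends removed, the median of the subunits was 0.04 instead of -0.42 on the ground between genotypes, with 2 lower and 2 higher. Itgb7 was then at -0.53 on the ground and -0.85 in flight, and passed without being a DEG. Among the integrin ligands, 4 of 5 were tested. Fn1, encoding fibronectin, was a DEG between genotypes, at 6.50 TPM in GC-KO and 31.4 TPM in GC-WT mice (log2 fold change -2.14) and at 3.40 TPM in FL-KO and 23.9 TPM in FL-WT mice (-2.33). Vcam1, encoding the other ligand of VLA-4, did not pass on the ground, at -0.26, and passed at -0.47 in flight. That call was lost with median-of-ratios scaling, at -0.09, and with quantile normalization, at -0.03. It was kept with GC content and length trends removed, at -0.36, and with the small RNAs left out, at -0.40. On the ground Vcam1 passed with the small RNAs left out, at -0.38. For flight no ligand passed in WT mice, where Fn1, Icam2 and Vcam1 moved most, at -0.41, -0.32 and -0.30, and Vcam1 and Icam1 passed in Nrf2-KO mice, at -0.51 and -0.40. Both of these calls were lost with median-of-ratios scaling, at -0.09 and -0.15, and Icam1 was at 0.05 with GC content and length trends removed.

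Selp, encoding P-selectin, passed as lower in FL-WT vs. GC-WT, at -0.37, a call that was lost with median-of-ratios scaling, and in no other comparison, and Sele, encoding E-selectin, was below the filter. Of 12 genes of selectin ligands and their glycosylation, 4 passed as lower between genotypes on the ground, where 42.9% of all genes did, and 6 in flight, where 47.2% did, with medians of -0.21 and -0.31 beside -0.22 and -0.25 for all genes. In the flight mice Spn, encoding the sialomucin CD43, at -1.32, and Glg1, encoding an E-selectin ligand, at -1.02, were DEGs. With GC content and length trends removed they were at -0.71 and -0.46, and passed without being DEGs. In flight 6 passed as lower in WT and 10 in Nrf2-KO mice, led by Gcnt1, Glg1 and C1galt1 in WT mice, at -0.54, -0.52 and -0.48, and by Glg1, Spn and St3gal6 in Nrf2-KO mice, at -0.70, -0.60 and -0.60. With median-of-ratios scaling the list had 3 lower and 5 higher between genotypes on the ground, and 6 and 6 in flight.

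Cxcl12 was at 44.4 TPM in GC-WT, 42.6 TPM in GC-KO, 29.1 TPM in FL-WT and 22.6 TPM in FL-KO mice, and it passed as lower for flight in WT mice, at -0.61, and in Nrf2-KO mice, at -0.97, but not between genotypes, at -0.02 on the ground and -0.38 in flight. Both flight calls were lost with median-of-ratios scaling, at -0.23 and -0.54. Cxcl12 is made by stroma, and it stands in the stroma and endothelium list whose values are given above. Of the 10 tested genes of the axis, 7 passed as lower between genotypes on the ground and 8 in flight. The shares of all genes were 42.9% and 47.2%. Rac2, a GTPase of leukocyte migration, was a DEG in both, at -1.01 and -1.45, and Gnai2, the G protein chain of chemokine receptors, at -1.43, Grk2, a kinase that desensitises them, at -1.33, and Arrb2, an arrestin, at -1.07, were DEGs in flight. With GC content and length trends removed, Rac2 was at -0.59 and -0.90. Gnai2, Grk2 and Arrb2 were then at -0.78, -0.57 and -0.53 in flight, and all passed without being DEGs. With median-of-ratios scaling Rac2 and Gnai2 stayed DEGs in flight, at -1.06 and -1.03. Grk2 and Arrb2, at -0.94 and -0.67, and Rac2 on the ground, at -0.67, then passed without being DEGs. For flight 2 of the 10 passed as lower in WT mice, Cxcl12 and Dpp4, whose product cleaves CXCL12, against 39.0% of all genes. In Nrf2-KO mice 7 passed as lower, against 53.1%, led by Cxcl12, Grk2 and Gnai2, at -0.97, -0.77 and -0.75. With median-of-ratios scaling 2 of the axis passed as lower and 1 as higher in FL-KO vs. GC-KO.

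Of 9 other homing receptors, 5 passed as lower between genotypes on the ground and 4 in flight, beside 42.9% and 47.2% of all genes. In flight S1pr4, a sphingosine phosphate receptor, at -1.08, and Cx3cr1, the fractalkine receptor of monocytes, at -1.03, were DEGs. With GC content and length trends removed they were at -0.32 and -0.53, and passed without being DEGs. In the ground comparison Cx3cr1, S1pr4 and Cxcr3 moved most, at -0.90, -0.68 and -0.56. With the trends removed S1pr4 was at -0.16 there and no longer passed. For flight Ccr1, a receptor of myeloid cells, passed as higher in WT mice, at 0.29, and Cx3cr1 and S1pr4 passed as lower in Nrf2-KO mice, at -0.57 and -0.45, and the next in size was -0.27 for Ccr9. Both calls were lost under each of 4 other scalings, with S1pr4 at -0.05 with median-of-ratios scaling and at 0.05 with GC content and length trends removed, and Cx3cr1 at -0.30 and -0.15. S1pr1, which leads lymphocytes out of tissues, did not pass in any comparison.

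The genes whose level most resembled that of a member over the 24 libraries were sought among 5025 genes of at least 5 TPM, after the median of each library had been subtracted. The points share their groups and libraries, so the r values are a description. Itgb2 was nearest to its paralog Itgb2l, then Was and Por, each at r = 0.99 (n = 24 libraries), Itgam to Sort1, Mmp25 and Arid3a, and Itgal to Man2b1, Esyt1 and Mmp25, also at 0.99. Selplg was nearest to C5ar1 (r = 0.99), Hcls1 and Rhog (both 0.98), and Cd44 to Pygl, Itgb2l (both 0.98) and G6pdx (0.97). Itga4 had other neighbours, Rb1 and Pbrm1 at 0.96 and Ncapd3 at 0.95, and Cxcr4 was nearest to Sik1, Mxd1 and Zfp36l2, at 0.91, 0.90 and 0.84. Itgb1 was the least matched, with Atl3 at 0.84, Smarca5 at 0.80 and Cd151, a partner of β1 integrins in the membrane, at 0.78.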

How the data were processed

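Total RNA of cryopreserved bone marrow cells was measured in 24 mice. The authors made directional libraries with an MGI kit, sequenced them on a DNBSEQ-G400, mapped the reads with STAR 2.6.1 to mm10 and estimated TPM with RSEM 1.3.1, and the deposited table holds TPM. The annotation is not given in the sources used here. Its 54752 Ensembl IDs were matched to symbols of GENCODE vM21. Depth is unknown, so no counting error is given.

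Genes above 1 TPM in at least 1 library were kept (12373). On log2(TPM + 1), limma 3.58.1 (R 4.3.3) was fitted to all 24 libraries at once, the 4 group means as its terms, with Benjamini-Hochberg adjustment over the tested genes. Adding 1 understates the fold changes of low genes. Ratios and single genes were tested by exact two-sided permutation of 6 mice against 6 (924 splits). Other steps used Python 3.11.15, pandas 2.3.3, scipy 1.17.1 and matplotlib 3.10.9. The limma step was tested on simulated data of FL-KO vs. FL-WT. It called 198 of the 200 genes given a change and 1 of the other 12173. The changed genes were not low in level, and their estimated log2 changes had medians of 1.49 and -1.52, past the fold change of 2. Noise was drawn independently per gene, without shifts shared by the genes of a library, so these counts do not carry over to the data.

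Members and lists were chosen with earlier results of these data known. The text names the members, the DEGs of each list of related genes or otherwise the 3 largest changes, and the 3 genes most like each member. Further genes, among them Rap1a, Rap1b, Vcam1, S1pr1 and the markers given by name, were named after their values were seen. A gene of the related lists is not reported here. Promoter sequences are from RefSeq. Alternatives were another pseudocount, filter, scaling, variance trend or threshold, the compared groups alone, a block for mouse number, and each library left out.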

Additional observations from a re-analysis of the deposited data

Results flagged for a closer look

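Selplg in GC-WT mouse 10 was at 58.58 TPM, below the other 5 GC-WT mice by more than the spread among them, whose lowest was at 80.4 TPM. It was picked out by Dixon's criterion for a single value far from its group. Chance picks out about 1 in 20 groups, and 1 of the 32 groups of 6 mice examined was picked out. Mouse 10 was also lowest of its group in the other 7 genes.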

How the results depend on the processing

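Alternatives moved the 8 genes mainly through the scaling between libraries. The number of members that were DEGs in GC-KO vs. GC-WT was 3, and it became 0 with GC content and length trends removed, 5 with the small RNAs left out and TPM rescaled, 6 with no minimum fold change, and 5 without GC-KO mice 11 and 12, an alternative added after the data were seen. Without 1 library it lay between 3 and 5, with 5 reached without GC-KO mouse 12. With no minimum fold change the numbers for flight rose from 0 to 2 in WT and to 8 in Nrf2-KO mice. Without GC-KO mice 11 and 12, 1 ratio passed in FL-KO vs. GC-KO in place of 4, at the adjusted p below 0.05 used for ratios. Over all genes, DEGs lower in GC-KO vs. GC-WT numbered 376, and 40 with trends removed, 70 with median-of-ratios scaling, 86 with quantile normalization, 902 without small RNAs, 946 with a pseudocount of 0.1 and 973 without GC-KO mice 11 and 12. With no filter on low values, where p was adjusted over 54752 genes in place of 12373, 7 calls of members were lost. The cause was not tested.

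Single members turned direction, always without an adjusted p under 0.1 except where noted. In FL-WT vs. GC-WT, with GC content and length trends removed, Itgam was at 0.19, Itgal at 0.09, Itgb2 at 0.09, Itgb1 at 0.03, Selplg at 0.13 and Cd44 at 0.24. With median-of-ratios scaling they were at 0.22, 0.07, 0.19, 0.11, 0.27 and 0.27, and Cxcr4 at 0.07. With quantile normalization Itgam was at 0.02, Itgb1 at 0.00, Selplg at 0.01 and Cd44 at 0.07. In FL-KO vs. GC-KO, median-of-ratios scaling gave 0.05 for Cd44 and 0.03 for Cxcr4. In GC-KO vs. GC-WT, Itga4 was at 0.07 and Itgb1 at 0.13 with either median-of-ratios scaling or quantile normalization, and Itgb1 at 0.03 with trends removed. In FL-KO vs. FL-WT, Itga4 was at 0.09 and 0.18. The interaction of Itga4 was 0.02 with median-of-ratios scaling, 0.11 with quantile normalization, 0.16 without small RNAs and 0.07 without GC-KO mice 11 and 12, and between -0.13 and 0.07 without 1 library. That of Cxcr4 was 0.15 with quantile normalization, 0.10 without small RNAs, and between -0.21 and 0.00 without 1 library.

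Over all members and settings, 1300 values kept their direction and side of the threshold, 74 lost a call, 4 gained one and 46 turned. Without 1 library, Cd44 lost its call in FL-KO vs. GC-KO in 14 of 24 fits, Cxcr4 its call in FL-WT vs. GC-WT in 7, and Itgam and Itgb2 theirs in FL-KO vs. GC-KO in 2, those without GC-KO mouse 11 or 12. Itga4 gained a call in FL-KO vs. FL-WT without FL-WT mouse 5, at -0.37.

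Ground and flight mice share numbers, but same-numbered mice deviated together only weakly (r between -0.03 and 0.33), and a mouse was closest to its own number in 2 of 12 pairs, so the numbers were not taken as pairs. With the replicate block the number of members that were DEGs stayed at 0 for flight in either genotype and for the interaction, and no call of a member changed. With the block and trends removed, Cd44 in FL-WT vs. GC-WT was at 0.24 and passed (limma adjusted p = 0.0711), while Itgam was at 0.19, Itgal and Itgb2 at 0.09, Itgb1 at 0.03 and Selplg at 0.13. Depth is not known, so it cannot be said what it limits.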
